A study of Homo sapiens with 8 samples.

Results

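The 6 genes GRHL1, GRHL2, GRHL3, OVOL1, OVOL2 and TP63 encode transcription factors of epithelial identity, and they were taken by gene name from tables that list 60649 gene identifiers. All 6 were found in each of the 8 libraries. PolyA RNA was sequenced from HCT116, a human colorectal carcinoma cell line, and from UF1hypo, a single clone of it in which exon 4 of one UHRF1 allele was removed. Each line was infected with lentivirus for either a scrambled hairpin, shScr, or the UHRF1 hairpin, shUHRF1, and kept as stable puromycin-selected pools, with 2 libraries in each of the 4 groups, so all cells share the HCT116 background and a lentiviral hairpin. UF1hypo shScr therefore has 1 disrupted allele and no knockdown, whereas UF1hypo shUHRF1 combines that allele with knockdown. With 1 clone and 1 UHRF1 hairpin, loss of UHRF1 cannot be told apart from other traits of the clone or other effects of the hairpin. The shScr libraries of a line are called its controls below. The labels do not say whether libraries of a group came from separate cultures, so that the spread between them, which is all that the p-values measure, may be technical.

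The grainyhead-like factors GRHL1, GRHL2 and GRHL3 bind a shared DNA motif and switch on genes for cell junctions and surface barriers in epithelia. OVOL1 and OVOL2 are zinc finger repressors that hold back mesenchymal genes such as ZEB1, and TP63 is the factor that specifies basal cells of squamous epithelia, a program that the normal colon lining does not use. UHRF1 recruits the DNA methyltransferase DNMT1 to newly replicated DNA, and the study asked how far UHRF1 must fall before silenced genes return. TPM is a transcript abundance, adjusted for length and set to an equal total in all libraries. UHRF1 itself had a mean TPM of 93.0 ± 7.73 (SD, n = 2, which holds for all group means) in HCT116 shScr, and knockdown left 32.2 ± 0.718. UF1hypo shScr stood at 48.9 ± 2.37 and UF1hypo shUHRF1 at 27.6 ± 9.14, with 34.1 and 21.1 in its libraries. By the limma fit described with the gene lists, the log2 fold changes were −1.50 in HCT116 (adjusted p = 0.0634) and −0.84 in UF1hypo (adjusted p = 0.0405), neither of which met both limits for a call. These are mRNA values and need not match protein. By Western blot the paper reports that UF1hypo lost more UHRF1 protein than most of its heterozygous clones. It also reports a further sharp protein loss with knockdown in UF1hypo.

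Because UHRF1 acts in the maintenance of CpG methylation, the start regions of GRHL3 and GRHL1 are shown for their CpG content. They cover 250 bases upstream of each start site in RefSeq on GRCh38.p14, all on the plus strand, 5′ to 3′, with CG dinucleotides in capitals. The first GRHL3 start lies at chr1:24319107-24319356, the next one at chr1:24322790-24323039, and the GRHL1 region at chr2:9951443-9951692.
GRHL3 first start: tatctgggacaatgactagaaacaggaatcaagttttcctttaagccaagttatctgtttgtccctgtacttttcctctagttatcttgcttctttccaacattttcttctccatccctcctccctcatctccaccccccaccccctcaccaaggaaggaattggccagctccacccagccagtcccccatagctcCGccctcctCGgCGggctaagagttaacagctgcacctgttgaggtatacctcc
GRHL3 next start: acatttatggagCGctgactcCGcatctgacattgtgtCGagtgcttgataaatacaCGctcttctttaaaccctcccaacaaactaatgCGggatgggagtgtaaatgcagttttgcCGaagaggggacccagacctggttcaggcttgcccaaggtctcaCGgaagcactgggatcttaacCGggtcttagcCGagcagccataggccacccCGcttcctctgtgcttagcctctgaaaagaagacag
GRHL1: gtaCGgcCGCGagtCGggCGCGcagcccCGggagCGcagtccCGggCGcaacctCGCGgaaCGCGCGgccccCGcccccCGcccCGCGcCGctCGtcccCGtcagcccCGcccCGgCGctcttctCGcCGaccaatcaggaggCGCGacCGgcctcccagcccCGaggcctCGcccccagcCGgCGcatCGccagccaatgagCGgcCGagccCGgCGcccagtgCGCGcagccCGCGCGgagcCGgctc

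The GRHL3 regions held 3 and 10 CG dinucleotides and that of GRHL1 held 45, against a median of 11 over 35116 start regions of the same length. A region is called CpG-rich here when its GC content exceeds 50% and its observed over expected CG ratio exceeds 0.6, which applied to 44.8% of all regions. GRHL1 met this with a GC content of 81.6% and a ratio of 1.12. GRHL3 did not, with ratios of 0.219 and 0.592. Neither did the region matched for TP63, just upstream of the annotated gene start, which held 6 CG dinucleotides at a ratio of 0.502. Any start further inside the TP63 gene was not covered. Windows of 300 bases, which add 50 bases past the start, were searched on both strands for AACCGGTT, the palindromic core of the grainyhead motif, for its looser form AACNNGTT, which includes it, and for the OVOL core CCGTTA. These letters occur in 0.134%, 3.52% and 3.07% of all windows and in 0 of the 4 windows of GRHL1, GRHL3 and TP63. RefSeq start regions were thus matched for 3 of the 6 genes, and DNA methylation was not analysed here.

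The 6 genes were chosen with earlier results on these libraries in view, and that choice rests on their TPM in every group. Their own levels and fold changes are therefore given as a description with no p-value. How often groups of 2 libraries do not overlap was not determined over all genes, so a lack of overlap below is description only. A log2 fold change is the difference between group means of log2(TPM + 1), which understates changes of genes with a low TPM. The aligned bases per library ranged from 5.42 to 7.83 gigabases. The 2 UF1hypo shUHRF1 libraries stood apart from each other more than other replicates, with Pearson's r of 0.956 across 13781 genes against 0.991 to 0.992 in the other groups, and their difference followed the GC content of transcripts (Spearman's rho 0.814 across these genes, no independent units). The difference between the UF1hypo shScr replicates also went with GC content, at a rho of −0.508, against −0.0417 and −0.0680 in the HCT116 groups, so both sides of the UF1hypo knockdown carry such a difference. Colon epithelial cells were checked with 10 marker genes, of which 7 had a TPM above 1 in each group, among them EPCAM and the keratins KRT8, KRT18 and KRT19. The others were VIL1, with a TPM of at most 0.142, LGALS4, with at most 0.718, and CDX1. The intestinal transcription factor CDX1 was at 0 in all groups except UF1hypo shUHRF1. The summed TPM of the 10 was 4356 to 4410 in HCT116 shScr, 5487 to 5606 with knockdown, 8822 to 9095 in the UF1hypo controls and 9968 to 12781 with knockdown, and KRT20 had 9.28 and 9.06 in those controls against 75.0 and 111 with knockdown. KRT8, KRT18 and KRT19 made up most of each sum, whereas EPCAM had 357 and 327 in the UF1hypo controls against 174 and 314 with knockdown. In bulk RNA, fewer cells that express a gene and less RNA per cell cannot be told apart.

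GRHL3 varied most among the 6 genes, with a range of 3.77 in log2(TPM + 1) across the libraries, and was higher in every condition with less UHRF1 mRNA than HCT116 shScr. This factor (ENSG00000158055.16, chromosome 1, 24319357 to 24364482, plus strand, GRCh38) drives closure of the skin barrier and terminal differentiation of surface cells. In HCT116 the TPM was 1.76 and 2.59 in the controls and 13.3 and 13.2 with knockdown. The UF1hypo controls had 9.16 and 9.18, and the knockdown libraries of that line had 36.7 and 28.8. No pair of groups overlapped, and the order from lowest to highest was HCT116 shScr, UF1hypo shScr, HCT116 shUHRF1 and UF1hypo shUHRF1.
The group mean was 6.08-fold higher with knockdown than without in HCT116 and 3.57-fold higher in UF1hypo. Without any knockdown it was 4.21-fold higher in UF1hypo than in HCT116. The corresponding log2 fold changes were 2.18 (standard error 0.216), 1.72 and 1.69, and the knockdown effect in UF1hypo minus that in HCT116 was −0.46 (standard error 0.305). Leaving out 1 library at a time kept these between 1.99 and 2.37, between 1.55 and 1.89, and between 1.50 and 1.88. The mean depth behind the gene was 0.759 and 1.35 reads per base in HCT116 shScr, the lowest group, and 15.6 to 21.2 in UF1hypo shUHRF1.

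**Figure D1:**
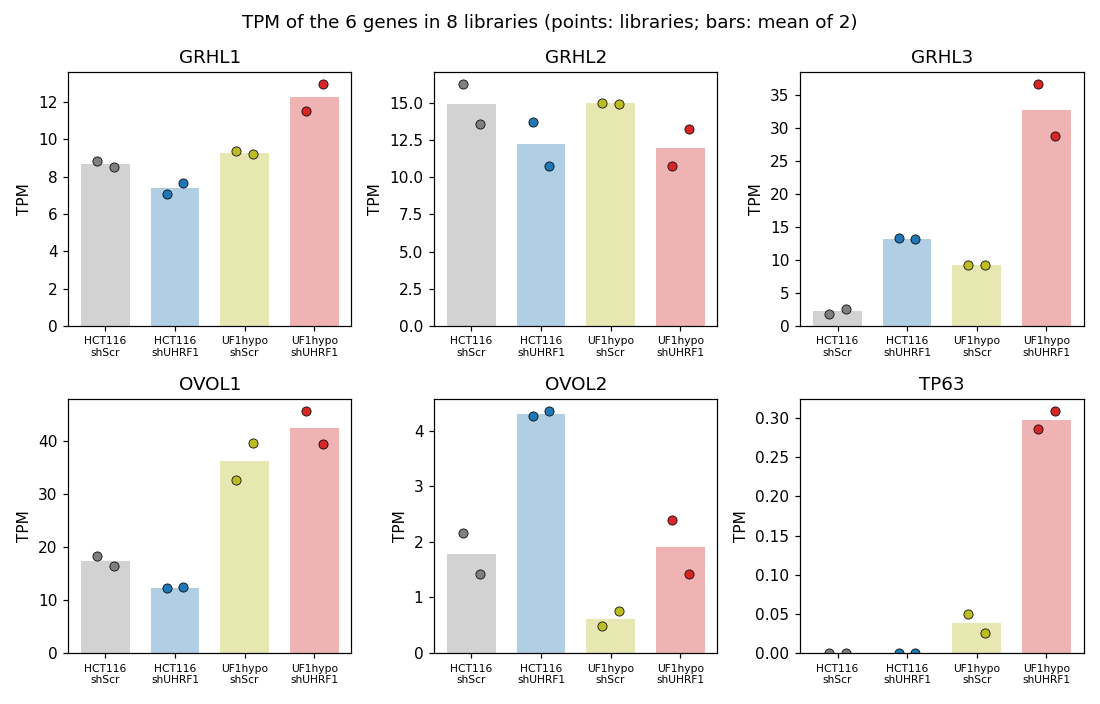
TPM of the 6 genes (y axes, each with its own scale from 0) in the 4 groups of libraries on the x axes, with points for libraries and bars for the mean of 2. GRHL3 ranges from 1.76 in the lowest HCT116 shScr library to 36.7 in the highest UF1hypo shUHRF1 library, whereas GRHL2 stays between 10.8 and 16.3.

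GRHL2, the family member that keeps simple epithelia together through CDH1 and other junction genes, differed far less. This gene (ENSG00000083307.12, chromosome 8, 101492439 to 101669726, plus strand) had a TPM of 16.3 and 13.6 in the HCT116 controls against 13.8 and 10.8 with knockdown. The UF1hypo controls gave 15.0 and 15.0 against 10.8 and 13.2 with knockdown. Each group overlapped with its neighbours in the order of the means. The means were 17.9% lower with knockdown in HCT116 and 19.9% lower in UF1hypo, where both shUHRF1 libraries lay below both shScr libraries. Its log2 fold changes were −0.27 and −0.30 (standard error 0.209 each).

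GRHL1, which acts in hair follicles and epidermal desmosomes, had small differences of opposite sign in the lines. This gene (ENSG00000134317.18, chromosome 2, 9951693 to 10002277, plus strand) had a TPM of 8.82 and 8.54 in HCT116 shScr and 7.08 and 7.69 in HCT116 shUHRF1, a mean 14.9% lower. UF1hypo went from 9.36 and 9.22 in the controls to 11.5 and 13.0 with knockdown, a mean 31.9% higher. No groups overlapped, yet the log2 fold changes were small, at −0.21 and 0.36 (standard error 0.184 each).

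OVOL1 differed more between the lines than with knockdown. This repressor (ENSG00000172818.10, chromosome 11, 65787063 to 65797214, plus strand) stops progenitor cells from dividing as the epidermis differentiates. Its TPM was 18.3 and 16.4 in HCT116 shScr and 12.2 and 12.4 in HCT116 shUHRF1. The UF1hypo controls had 32.6 and 39.6, and the UF1hypo knockdown libraries had 45.5 and 39.3. All 4 UF1hypo libraries lay above all 4 HCT116 libraries, with a mean 2.08-fold higher under shScr and 3.44-fold higher under shUHRF1. On knockdown the mean was 29.1% lower in HCT116 without overlap and 17.5% higher in UF1hypo with overlapping libraries. After correction for GC content and transcript length the log2 fold change in UF1hypo was −0.0026 in place of 0.23.

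OVOL2, which represses ZEB1 and is needed for epithelial fate, had the opposite order of the lines. This gene (ENSG00000125850.11, chromosome 20, 17956979 to 18059188, minus strand) had a TPM of 2.15 and 1.43 in HCT116 shScr and 4.26 and 4.35 in HCT116 shUHRF1. The UF1hypo controls had only 0.484 and 0.756, and the UF1hypo knockdown libraries 2.39 and 1.42. Knockdown libraries were higher without overlap in both lines, by 2.40-fold in HCT116 and 3.07-fold in UF1hypo, and UF1hypo was 2.89-fold lower than HCT116 under shScr. HCT116 shScr and UF1hypo shUHRF1 overlapped.
These levels rest on few reads, with a mean depth of 0.135 to 1.22 reads per base. In log2(TPM + 1) the changes were 0.94, 0.83 and −0.78 (standard error 0.246 each). With a pseudocount of 0.1 they were 1.25, 1.46 and −1.39, and with FPKM in place of TPM they were 0.70, 0.50 and −0.49. Quantile normalization gave the lowest value for the UF1hypo knockdown, 0.41. The annotated OVOL2 gene shares 59 exon bases with SNX5 on the same strand, whose TPM was 128 to 180. SNX5 had log2 fold changes of −0.22 on knockdown in HCT116 and 0.03 in UF1hypo, and the share of its reads in the OVOL2 values was not tested. Whether strand was used in counting is not given in the sources used here, and the antisense RNA that shares 1039 exon bases with OVOL1 had a TPM of at most 0.0490.

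TP63 stayed near 0. This gene (ENSG00000073282.14, chromosome 3, 189631389 to 189897276, plus strand) was listed at 0 in all 4 HCT116 libraries, and reached a TPM of 0.0502 and 0.0258 in the UF1hypo controls against 0.286 and 0.309 with knockdown. Its mean was 7.83-fold higher with knockdown in UF1hypo, without overlap, at a depth of at most 0.177 reads per base. It was the only one of the 6 genes that did not reach a TPM of 1 in any library, and the gene tables do not separate the isoforms that start with or without the transactivation domain.

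On the log2(TPM + 1) scale, 1 of the 6 genes, GRHL3, had an absolute fold change above 1 on knockdown in HCT116, against 1.05% of 12704 tested genes. In UF1hypo it was again GRHL3 alone, against 9.64% of 13620. Under shScr, 2 of the 6, GRHL3 and OVOL1, were past 1 between the lines, against 4.78% of 12856 genes, and 0 of the 6 were for the difference between the knockdown effects, against 10.8% of 13781. These counts describe the choice of the genes and carry no test. Single libraries moved them: without replicate 1 of HCT116 shScr, OVOL2 joined GRHL3 on knockdown in HCT116 and the count was 2. OVOL2 also made it 2 in UF1hypo without replicate 2 of UF1hypo shUHRF1, and it was 1 between the lines without replicate 2 of HCT116 shScr or of UF1hypo shScr.

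**Figure D2:**
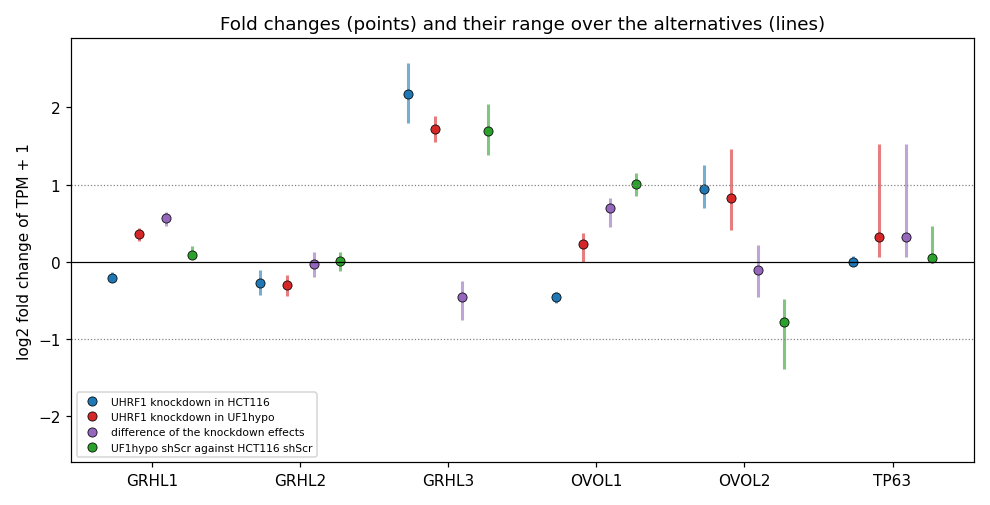
Log2 fold change of TPM + 1 (y axis) for the 6 genes on the x axis in 4 comparisons, with points for the values given in the text and lines for the range over all alternatives and left-out libraries. GRHL3 lies above 1 in both knockdowns and between the lines, and the dotted lines mark a change of 1 in either direction.

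Levels of different genes could be ranked only with care, because the tables give a further measure per length. Mean coverage per base put GRHL2 above GRHL3 in every library, at 29.8 against 21.2 in replicate 1 of UF1hypo shUHRF1, whereas TPM put GRHL3 above in that library, at 36.7 against 10.8. The ratio of coverage to FPKM, a measure scaled for gene length and library size, taken as a percentage of the highest ratio in the library, was 82.4 to 86.4 for GRHL2, 17.8 to 18.5 for GRHL3 and 7.88 to 8.41 for OVOL2. It was 41.4 to 43.1 for OVOL1 and 19.1 for TP63, and varied most between libraries for GRHL1, from 38.3 to 43.0, a spread near the size of the GRHL1 change in HCT116. The order of levels between genes is therefore not settled.

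**Figure D3:**
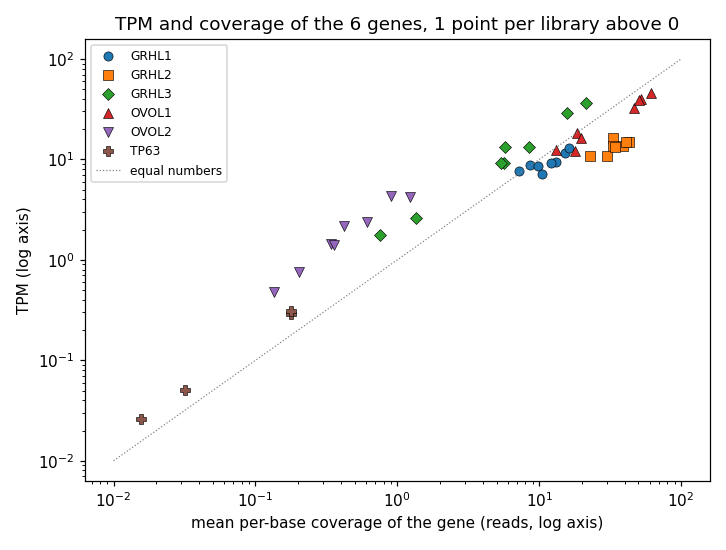
TPM (y axis, log scale) against mean coverage per base (x axis, log scale) for each library in which a gene was above 0. GRHL2 lies below the dotted line of equal numbers and OVOL2 above it, so the order of the genes depends on the measure.

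Relatives of these factors were tested in a fit over all protein-coding genes (limma with Benjamini-Hochberg adjustment), in which a gene was called at an adjusted p below 0.05 and an absolute log2 fold change above 1. Of TFCP2, TFCP2L1 and UBP1 of the CP2 branch, OVOL3 and TP73, none was called by limma in the knockdowns, in the difference of their effects or between the lines under shScr. An unadjusted p below 0.05 was found for OVOL3 and TP73 on knockdown in UF1hypo, at log2 fold changes of 0.84 (adjusted p = 0.141) and 0.48 (adjusted p = 0.145), and for TP73 between the lines at 0.47 (adjusted p = 0.235).

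Genes of the programs that these factors are tied to were grouped into 4 lists with 81 genes in all. Which of them the factors control in these cells was not tested. The lists were chosen with earlier results of these data known, so the counts and p-values below are no independent support. They hold 16 epithelial junction and splicing targets of GRHL2 and OVOL factors, 13 mesenchymal genes that these oppose, 25 basal squamous genes linked to TP63 and 27 surface barrier genes linked to GRHL1 and GRHL3. On UHRF1 knockdown in UF1hypo, 14 of 57 tested genes were called, all higher, which is 24.6% against 8.53% of all genes tested in either direction and 7.39% called higher. In HCT116, 0 of 52 were called by limma against 0.0787% of all genes, and 9 had an unadjusted p below 0.05, as did 6.58% of all genes. VIM was called there without either replicate of UF1hypo shUHRF1, so that the count was 1. Between the lines under shScr, 12 of 56 were called higher and 3 lower, which is 26.8% against 3.54% of all genes, 2.58% higher and 0.957% lower. Among the shScr libraries, TWIST1, TRIM29 and KLK5 exceeded a TPM of 1 in UF1hypo alone, and DSC3, PRDM1 and SPRR2D in HCT116 alone. These genes entered the test through the group where they were high, so each could be called in that direction only. SPRR2D entered through a single library, at 2.29 beside 0.873. For the difference of the knockdown effects, 15 of 60 were called against 5.09%, or 4.54% counting higher ones alone, all with the more positive effect in UF1hypo. The shScr libraries of each line enter 3 of these comparisons, which are therefore not independent. The difference count was 4 to 6 without either replicate of HCT116 shScr, HCT116 shUHRF1 or UF1hypo shScr, and the count between the lines was 8 or 9 without either replicate of HCT116 shScr or UF1hypo shScr. KLK5, KRT13, KRT14 and KRT17 were called for the difference in each of these 6 cases. KRT17 entered through UF1hypo shUHRF1 alone in each case, so it could only be called higher. Over all genes the shares without those libraries were 1.24% to 1.97% for the difference and 1.07% to 1.31% between the lines. On knockdown in UF1hypo 12 list genes were called without replicate 1 of UF1hypo shUHRF1, beside 8.36% of all genes, and 16 without replicate 2, beside 16.8% of all genes.

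**Figure D4:**
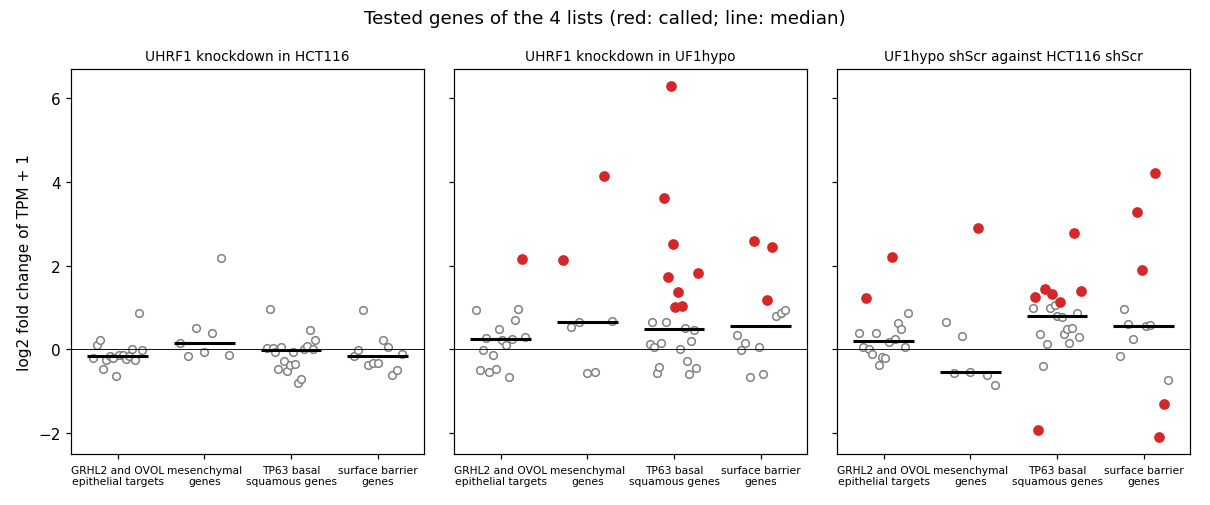
Log2 fold change of TPM + 1 (y axis) of each tested gene in the 4 lists (x axes) in the knockdowns and between the lines, with called genes in red, others as open circles and the list median as a black line. Red points are absent for the knockdown in HCT116, and 8 of the 22 tested basal squamous genes are red and above 0 for the knockdown in UF1hypo.

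The targets of GRHL2 and OVOL factors had a median log2 fold change of 0.24 on knockdown in UF1hypo, against 0.04 over all genes tested. Of the 16 genes 10 were above 0, and those below 0 included PROM2 at −0.65 and EPCAM at −0.55. On knockdown in HCT116 the median was −0.16 against −0.03 over all genes tested, with 4 of the 16 above 0. CDH1, the junction protein E-cadherin, had 58.7 and 52.8 in the UF1hypo controls against 102 and 112 with knockdown, whereas HCT116 had 42.3 and 42.7 against 37.9 and 35.4. Its difference of the effects was called at 1.14 (adjusted p = 0.0195), as was that of ST14, a membrane protease, at 1.202. Both calls were lost without any 1 of the HCT116 libraries or of the UF1hypo shScr libraries, CDH1 also with quantile normalization and ST14 also with a pseudocount of 0.1, without the TPM filter, with median-ratio scaling, with the GC and length correction and without replicate 1 of UF1hypo shUHRF1. ST14 had 238 and 281 in the UF1hypo controls against 598 and 420 with knockdown, and 189 and 180 against 164 and 147 in HCT116. Between the lines, PROM2 and the tight junction gene CLDN4 were called higher in UF1hypo, with log2 fold changes of 2.20 and 1.22.

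Of the 13 mesenchymal genes only 7 reached a TPM of 1 for the test, and ZEB2 was at 0 in every library. VIM, the intermediate filament vimentin, rose in UF1hypo from a TPM of 1.48 and 0.700 to 44.6 and 27.6 with knockdown, a log2 fold change of 4.14 (limma, adjusted p = 7.92e-05). FN1, the matrix protein fibronectin, rose from 8.06 and 9.31 to 45.0 and 38.0, a log2 fold change of 2.13. VIM in HCT116 went from 2.45 and 1.82 to 15.0 and 11.7, a log2 fold change of 2.19 with an adjusted p of 0.0531 in limma, which ranged from 0.00027 with the 4 HCT116 libraries alone to 0.541 without replicate 1 of HCT116 shUHRF1. ZEB1, the target of OVOL repression, was not called in any of the comparisons, with values of 0.312 to 2.21 over the 8 libraries. It had 0.312 and 0.710 in UF1hypo shScr against 2.21 and 1.27 in HCT116 shScr. An unadjusted p below 0.05 in limma was found there, at a log2 fold change of −0.85 (adjusted p = 0.131). The same held for the knockdown in UF1hypo, at 0.68 (adjusted p = 0.145). Between the lines TWIST1, a driver of mesenchymal transition, was called higher in UF1hypo with a log2 fold change of 2.89, from 0.516 and 0.519 to 10.4 and 10.2. The list as a whole did not follow it, with a median of −0.54 over the 7 tested genes, 3 of them above 0, and VIM at −0.60. On knockdown in UF1hypo TWIST1 was lower, at −0.54, and was not called.

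The basal squamous list held most of the calls, with 8 of 22 tested genes higher and 0 lower on knockdown in UF1hypo and a median log2 fold change of 0.49. The largest were the keratins KRT17, KRT14, KRT5 and the adhesion regulator TRIM29. KRT17 went from a TPM of 0.406 and 0.484 to 150 and 83.4, by 6.29 on the log2 scale (limma, standard error 0.287, adjusted p = 6.74e-06). KRT14 went from 1.13 and 0.941 to 28.5 and 20.1, and KRT5, its partner in basal filaments, from 2.04 and 0.925 to 16.1 and 10.2. KRT17 and KRT6B exceeded a TPM of 1 in UF1hypo shUHRF1 alone. They entered this test and that of the difference through that group and could only be called higher. KRT17, KRT14, KRT5 and TRIM29 were not tested in HCT116, where no library was above a TPM of 1. The TPM of TP63 in the UF1hypo knockdown libraries was at most 0.309. KRT14, KRT16 and KRT17, like KRT6A and KRT6B, are close copies between which reads can be split, so that the share of each is uncertain. Between the lines 6 genes were called higher and 1 lower, among them S100A2 at 2.78, ITGB4 at 1.45, TRIM29 at 1.40 and KRT15 at 1.33, while the desmosomal cadherin DSC3 fell by 1.93 on the log2 scale. For the difference of the effects 8 of 23 were called, led by KRT17 at 6.14, KRT14 at 3.64, KRT16 at 2.12 and KRT5 at 2.06.

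The barrier list had few genes with enough signal, and 12 of its 27 were tested on knockdown in UF1hypo. Of these, 3 were called higher there, KLK5 at 2.58, KRT13 at 2.43 and KRT10 at 1.18. KLK5, a protease of the skin surface, went from a TPM of 11.8 and 13.6 to 92.2 and 70.9 in UF1hypo, and had 0.786 and 0.106 in HCT116 shScr. KRT13, a keratin of moist squamous surfaces, had 49.5 and 56.6 in the UF1hypo controls, 327 and 258 with knockdown and 1.84 to 2.11 in HCT116. TGM1, the crosslinking enzyme that GRHL3 is known to activate, went from 3.39 and 3.72 to 9.75 and 5.51 in UF1hypo and was not called. In HCT116 it had 9.54 and 4.42 in the controls against 8.08 and 4.45 with knockdown, a log2 fold change of −0.10. Between the lines KRT13 at 4.20, KLK5 at 3.28 and KLK7 at 1.89 were called higher, and PRDM1 and SPRR2D fell by 2.08 and 1.31. Of 9 markers that define squamous keratinocytes, KRT1 and LORICRIN were at 0 in every library and 3 had a TPM above 1 in each UF1hypo group. KRT5, KRT14 and KRT10 belong to these markers and to the lists above. The summed TPM of the 9 was 33.2 to 37.3 in HCT116 shScr, 38.6 to 44.8 with knockdown, 49.3 to 61.2 in UF1hypo controls and 143 to 177 with knockdown. Most of each sum was KRT10, with 36.8 and 32.8 in HCT116 shScr and 97.6 and 146 in UF1hypo shUHRF1. DSG1, DSG3, IVL and FLG stayed below a TPM of 1 in every library. The 12 leukocyte markers summed to 2.39 to 2.84 in HCT116 shScr and 6.73 to 11.1 in UF1hypo shUHRF1, and the 10 fibroblast and endothelial markers to 21.4 to 24.2 and 38.7 to 66.8, where 3 of the 12 and 1 of the 10 had a TPM above 1. CD3D had 5.05 and 2.99 in UF1hypo shUHRF1 and 0 in HCT116 shScr, and COL1A1 had 65.5 and 37.7 against 23.5 and 21.1. CD2 and LUM were at 0 in every library. These sums and that of the colon markers, each carried largely by few genes, were highest in UF1hypo shUHRF1. Their part in these results was not tested.

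The genes whose pattern was most like that of a regulator were taken by Pearson's r of log2(TPM + 1) over the 8 libraries among 13780 genes, for the 3 regulators that varied by more than 1. Since the libraries form 4 groups of 2 replicates, this is a description. For GRHL3 they were PGF at 0.986, MSX1 at 0.984 and BMP4 at 0.977. MSX1, a homeobox factor, had a TPM of 139 in both HCT116 shScr libraries and 373 and 412 in UF1hypo shUHRF1. For OVOL1 they were LIF at 0.997, ADAP1 at 0.992 and PCDH1 at 0.989. LIF, a cytokine, went from 31.0 and 25.6 to 18.1 and 16.4 on knockdown in HCT116, and from 67.2 and 76.4 to 96.5 and 73.9 in UF1hypo. For OVOL2 they were ZNF550 at 0.954, SEC14L1 at 0.950 and MEX3A at 0.950. A correlation above 0.9 was found with 92 genes for GRHL3, 595 for OVOL1 and 23 for OVOL2.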

How the data were processed

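Polyadenylated RNA from 8 libraries was sequenced as paired ends, and reads were trimmed with Fastp, aligned to GRCh38 with HISAT2 2.0.4 and quantified with StringTie 2.1.4 by the authors. As deposited by the authors, TPM values are scaled for length and to a fixed total per library, FPKM values for length and all aligned bases, and coverage is the mean signal of reads per base, not scaled for depth. No counts were used, so the authors' DESeq2 was not run, no counting intervals were formed, and depth was read from coverage over FPKM.

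Of 60649 identifiers 60507 matched GENCODE and 19960 were protein-coding. Values were taken as log2(TPM + 1), and the 8 libraries entered 1 limma 3.58.1 fit (R 4.3.3) with 4 groups, a variance trend and 4 residual degrees of freedom. Genes with a TPM above 1 in a library of the comparison were tested, and the script was tested on simulated data. The regulators, the gene lists and the tests were chosen with earlier results of these data known. Named genes are the regulators, UHRF1, relatives, up to 4 called genes per list, direction and comparison, and the 3 most similar profiles. ZEB1, ZEB2, TGM1, SNX5, KRT6A and KRT6B as a pair, and marker genes are named beside these, the first 4 chosen after their values were seen. The alternatives are given in the closing section. Some genes of the lists are not reported here by name, though counts include them. Equal replicate numbers did not pair the libraries, though libraries of opposite number in UF1hypo shared deviations, as given in the closing section.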

Additional observations from a re-analysis of the deposited data

Results flagged for a closer look

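By the limma test of the difference, UF1hypo and HCT116 responded differently to the knockdown in 15 genes of the 4 lists, all more positive in UF1hypo. In log2 fold change the difference was 1.202 for ST14 and 1.14 for CDH1 among the GRHL2 and OVOL targets, and 1.98 for FN1 and 1.95 for VIM among the mesenchymal genes. It was 6.14 for KRT17, 3.64 for KRT14, 2.12 for KRT16 and 2.06 for KRT5 among the basal squamous genes, and 3.05 for KLK5 and 2.37 for KRT13 among the barrier genes. When each HCT116 library and each UF1hypo shScr library was left out in turn, KRT17, KRT14, KLK5 and KRT13 were called in all 6 cases, FN1 in 2, KRT16 and KRT5 in 1 each, and ST14, CDH1 and VIM in none. KRT17 exceeded a TPM of 1 in UF1hypo shUHRF1 alone, and no library of that group was left out in these cases. Its calls could thus only be more positive in UF1hypo.

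GRHL1 had a log2 fold change of −0.21 on knockdown in HCT116 and of 0.36 in UF1hypo (standard error 0.184 each), with every shUHRF1 library below its controls in the former and above them in the latter. This difference was not tested, because the gene was chosen with its values known.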

How the results depend on the processing

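Of 402 recomputed fold changes of the 6 regulators, 351 moved by less than the spread between replicates and 51 by more, and 0 of those above 1 changed sign. Many of the 351 could not move, so the count is no measure of stability. Dropping the TPM filter, fitting the 4 libraries alone, library weights and the replicate block all left the fold changes as they were. So did leaving out a library outside the comparison. Regulators past a log2 fold change of 1 numbered 1 on knockdown in HCT116 and 2 with a pseudocount of 0.1 (1 to 2 with each library left out), 1 in UF1hypo and 3 with that pseudocount (1 to 2), 0 for the difference and 1 with that pseudocount (0 to 0), and 2 between the lines, 3 with that pseudocount and 1 with FPKM or the GC and length correction (1 to 2). List genes called on knockdown in HCT116 numbered 0, but 1 with FPKM, the 4 libraries alone or library weights and 2 with the GC correction (0 to 1 with each library left out). In UF1hypo they numbered 14, and 9 with library weights (12 to 16). For the difference they numbered 15, but 8 with a pseudocount of 0.1 or library weights and 9 with quantile normalization (4 to 17), and between the lines 15 (8 to 16). The cause of these shifts was not tested. Deviations of same-numbered replicates correlated between −0.402 and 0.0547, so equal numbers do not pair the libraries. The −0.402 was between UF1hypo shScr and UF1hypo shUHRF1, where libraries of opposite number thus shared deviations. The source of this was not tested. With the replicate number as a block 0, 14, 10 and 14 list genes were called in these comparisons, in that order (CDH1 and ST14 were lost for the difference), and with crossed numbers 14 in UF1hypo. Low depth limits OVOL2 and TP63 most.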
